A study of Drosophila melanogaster with 8 samples.

Results

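The genes described here are 9 genes of sugar mobilisation and gluconeogenesis, taken by symbol from 16727 gene symbols measured in poly(A) RNA of Drosophila melanogaster heads: Pepck, fbp, tobi, Amy-p, Amy-d, Amyrel, GlyP, GlyS and Tret1-1. They were selected on measured values, the lower levels of Pepck and tobi in the mutant at night, so the night comparison of genotypes is given for all of them as a description with no test. The study compared flies of the vri mutant vriΔ679 with flies of the strain w1118, labelled wild type, at Zeitgeber time 14 (ZT14, in the dark) and ZT2 (in the light) of a cycle of 12 h light and 12 h dark at 25 °C. There were 2 libraries in each of the 4 groups: vriΔ679 at ZT14, wild type at ZT14, vriΔ679 at ZT2 and wild type at ZT2. The labels give no sex, age or background stock for the mutant and do not say whether replicates came from separate collections, so p-values measure only the spread between these libraries.

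In insects, sugar is stored as glycogen and travels in the hemolymph as trehalose. Glycogen phosphorylase releases glucose units from glycogen and glycogen synthase adds them, amylases and alpha-glucosidases cut dietary starch and maltose, and gluconeogenesis builds sugar from smaller molecules by way of phosphoenolpyruvate carboxykinase and fructose-1,6-bisphosphatase. The fat body, which is also present in the head, carries out much of this metabolism. The gene vri encodes a bZIP repressor of the circadian clock.

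Mapped reads ranged from 49.3 to 65.4 M per library. The library labelled vriΔ679 ZT14 replicate 2 stood apart at vri itself. Its transcripts with the first exon of the long protein form made up 74.1 % of vri FPKM (fragments mapped per kilobase of transcript, relative to library depth), against 1.00 % in vriΔ679 ZT14 replicate 1 and at most 0.504 % in the vriΔ679 ZT2 libraries. In the wild-type libraries the long form made up at least 95.5 %. This value goes against the library's label, though it rests on an estimated split of reads among transcripts. A mix-up or another genotype cannot be told apart from the values here. Every vriΔ679 ZT14 mean and difference below includes the library unless it is said to be left out. The 2 vriΔ679 ZT14 libraries differed most within a group, by a median absolute log2 difference of 0.317. In the other groups it was 0.102 to 0.129. Replicate 1 of that group had an FPKM total of 618398, against 528945 to 559141 in all other libraries. Values given without replicate 2 rest on replicate 1 alone for this group. The eye pigment gene w also differed, at 0.0338 to 0.0819 FPKM in vriΔ679 and 2.12 to 5.99 FPKM in wild type, so a genotype comparison here is between stocks that differ at more than vri. The library labelled vriΔ679 ZT14 replicate 2 had the value of 0.0819 FPKM, far below every wild-type library. Whether its own label is right was not tested. The strain w1118 is named for a mutation of w, so w RNA in its libraries, and not in those of vriΔ679, goes against the strain label. Whether that label is right was not tested. Of 8 neuron markers all were detected in every library, with a summed level of 662 to 922 FPKM, whereas 9 of 14 midgut enzyme markers stayed below 0.1 FPKM and 3 of them were listed at 0 throughout.

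All levels are FPKM summed over the transcripts of a gene and scaled between libraries. Amyrel, an amylase-related gene, stayed below 0.5 FPKM in every library, with 7.71 to 40.03 reads, and did not reach the minimum for testing (1 FPKM in at least 2 libraries). The other 8 genes were above 1 FPKM in all 8 libraries. GlyP had the highest level of the 9 in each library, at 247 to 487 FPKM. The range over the libraries was widest for tobi, whose highest level was 17.02 times its lowest, and narrowest for Tret1-1, at 1.67 times.

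Pepck (2R 18536767–18539416, plus strand, dm6) encodes the phosphoenolpyruvate carboxykinase of gluconeogenesis. It stood at 82.2 and 70.5 FPKM in vriΔ679 at ZT14 and at 365 and 395 FPKM in wild type at ZT14. At ZT2 it stood at 160 and 148 FPKM in vriΔ679 and at 295 and 308 FPKM in wild type. The 4 groups did not overlap: both vriΔ679 groups lay below both wild-type groups, and vriΔ679 at ZT14 was the lowest. The night level in the mutant was 0.201 times that of wild type, a log2 difference of −2.31 (SE 0.13), which is the value that put the gene on the list. Without the library labelled vriΔ679 ZT14 replicate 2 the difference was −2.20, and without replicate 1 it was −2.42.

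The morning means and difference come from ZT2 libraries alone, while the SE and p-value rest on a spread shared by all 8 libraries. At ZT2 Pepck was lower in vriΔ679 by a log2 difference of −0.97 (SE 0.13), 0.511 times the wild-type mean, with an adjusted p = 0.0112 (limma, Benjamini-Hochberg over 10122 genes). Both vriΔ679 libraries lay below both wild-type libraries. The call was lost when any of the 4 ZT2 libraries was left out, with differences of −1.02 to −0.91 and adjusted p = 0.0750 to 0.110 (limma). It was the only call among the 8 members tested at ZT2, 1 of 8 lower and 0 higher, where 1.01 % of all genes tested were called lower and 1.88 % higher. Between times, Pepck at ZT14 was 0.495 times its ZT2 mean in vriΔ679 and 1.26 times its ZT2 mean in wild type. These time values share the ZT14 libraries on which the gene was chosen and carry no test. An exon of CG45087 on the same strand overlaps Pepck, and CG45087 stood at 4.67 to 14.6 FPKM.

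**Figure D1:**
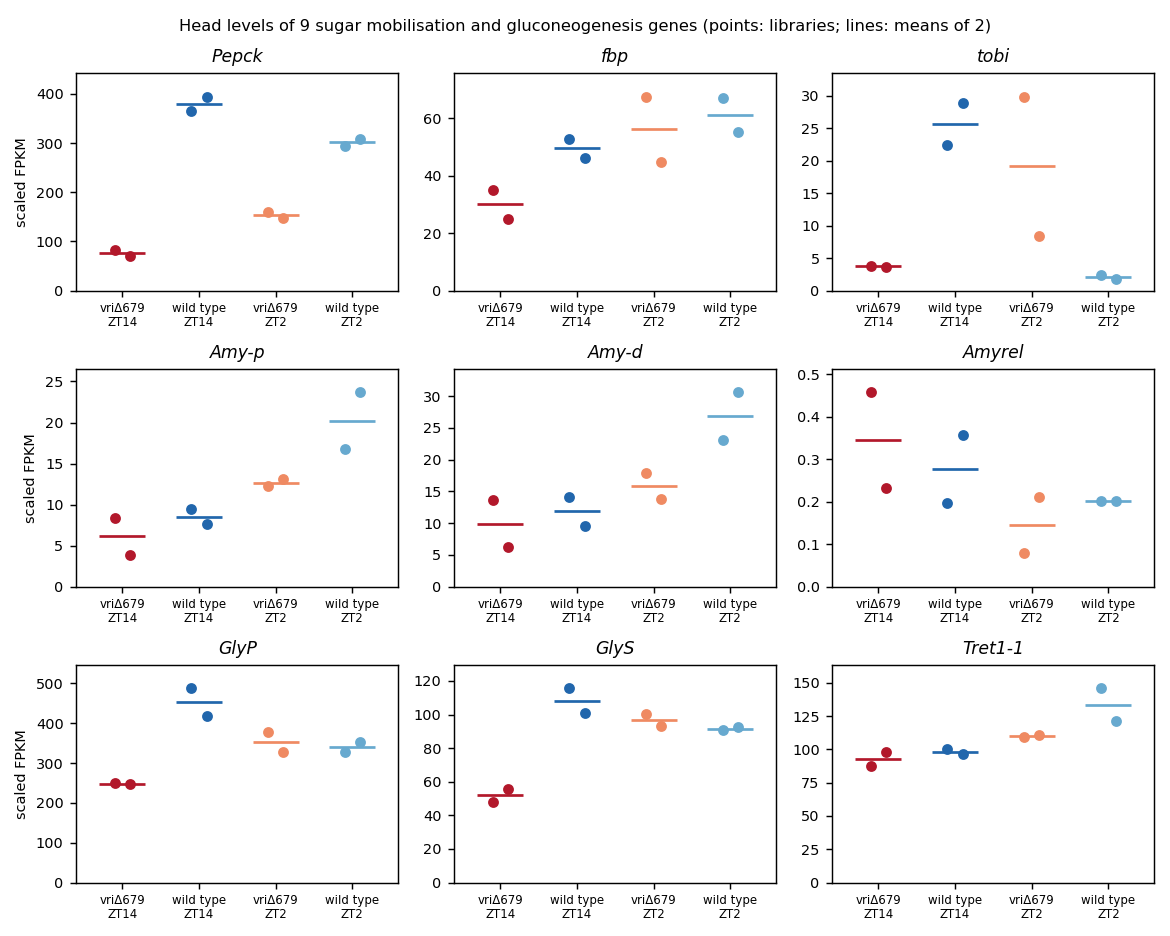
Scaled FPKM of the 9 genes in each library (points) with the mean of the 2 libraries of a group (lines), every axis starting at 0. Pepck was lowest in vriΔ679 at ZT14 (70.5 and 82.2), tobi was high in wild type at ZT14 and in vriΔ679 at ZT2, and GlyP and GlyS were lowest in vriΔ679 at ZT14.

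The gluconeogenic partner fbp (2L 19761587–19764136, minus strand), encoding fructose-1,6-bisphosphatase, overlapped between genotypes at ZT2 but not at ZT14. It stood at 35.0 and 25.1 FPKM in vriΔ679 at ZT14, against 52.9 and 46.3 FPKM in wild type at ZT14, and at 67.6 and 44.7 FPKM in vriΔ679 at ZT2, against 67.02 and 55.3 FPKM in wild type at ZT2. The ZT14 groups did not overlap (log2 difference −0.73, SE 0.24, and −0.49 without the library labelled vriΔ679 ZT14 replicate 2). At ZT2 the genotype difference was −0.15 (SE 0.24, adjusted p = 0.864, limma). From ZT2 to ZT14 fbp differed by −0.88 (SE 0.24, adjusted p = 0.0656, limma) in vriΔ679 and by −0.30 (SE 0.24, adjusted p = 0.609, limma) in wild type, and neither passed the threshold. The difference in vriΔ679 passed with equal library totals (−0.96, adjusted p = 0.0361, limma), and was −0.58 (adjusted p = 0.251, limma) without vriΔ679 ZT2 replicate 1 and −0.64 (adjusted p = 0.0973, limma) without the library labelled vriΔ679 ZT14 replicate 2.

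The alpha-glucosidase gene tobi (target of brain insulin, 3R 25344761–25346921, minus strand) is known to respond to insulin-like peptides and adipokinetic hormone. It had 3.78 and 3.68 FPKM in vriΔ679 at ZT14 and 22.5 and 29.0 FPKM in wild type at ZT14. At ZT2 the order of the genotypes was the opposite, with 29.9 and 8.41 FPKM in vriΔ679 and 2.35 and 1.76 FPKM in wild type. The night values, 0.145 times wild type (log2 difference −2.62, SE 0.52, and −2.60 without the library labelled vriΔ679 ZT14 replicate 2), chose the gene. In the morning both mutant libraries lay above both wild-type libraries, and the mean was 9.34 times that of wild type.

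The morning difference of tobi was 2.70 on the log2 scale (SE 0.52), with an adjusted p = 0.0564 (limma), which misses the threshold. The 2 mutant libraries at ZT2 stood far apart, at 29.9 and 8.41 FPKM. The difference was 3.58 without vriΔ679 ZT2 replicate 2 and 1.81 without vriΔ679 ZT2 replicate 1. It was 2.87 without wild-type ZT2 replicate 1 and 2.53 without wild-type ZT2 replicate 2. The morning difference stayed uncalled in 12 of the 17 alternative settings. It was called with the FPKM not rescaled (adjusted p = 0.0460, limma) and with equal totals (adjusted p = 0.0411, limma). Without the trend and robust options it was called too (adjusted p = 0.0467, limma). From ZT2 to ZT14 tobi differed by −1.96 (SE 0.52) in vriΔ679 and by 3.36 (SE 0.52) in wild type, given without a test because the ZT14 libraries chose the gene. The difference in vriΔ679 was −1.08 without vriΔ679 ZT2 replicate 1 and −2.85 without vriΔ679 ZT2 replicate 2. In wild type the ZT14 mean was 12.5 times the ZT2 mean, and in vriΔ679 it was 0.195 times. An exon of rha, on the opposite strand, overlaps tobi, and rha stayed at 0.112 to 0.214 FPKM.

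Over the 8 libraries, the gene with the pattern most like tobi among genes tested was CG11796 (current symbol Hpd), with Pearson r = 0.96 of log2 levels. CG18302 (r = 0.96) and CG8550 (current symbol Nepl10, r = 0.95) followed. CG11796 stood at 35.0 and 71.4 FPKM in vriΔ679 at ZT14, 211 and 243 in wild type at ZT14, 290 and 68.5 in vriΔ679 at ZT2, and 42.2 and 32.5 in wild type at ZT2. As for tobi, replicate 1 of vriΔ679 at ZT2 was the higher of the pair. For Pepck the 3 most similar genes were CG3295 (current symbol Sou, r = 0.99), CG8051 (r = 0.99) and gcl (r = 0.99). These coefficients describe 8 libraries in 4 groups.

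Of the fat body markers, Lsp2, Fbp1 and Fbp2 were higher in wild type at ZT14 and in vriΔ679 at ZT2, as tobi was. They are shown for that reason, chosen after their values were seen. Their lowest group mean was in vriΔ679 at ZT14, and that of tobi was in wild type at ZT2. Lsp2, a larval serum protein gene also expressed in adult fat body, stood at 4.47 and 5.90 FPKM in vriΔ679 at ZT14, 284 and 255 in wild type at ZT14, 258 and 78.0 in vriΔ679 at ZT2, and 34.4 and 23.4 in wild type at ZT2. Fbp1, a receptor for such storage proteins, stood at 0.149 and 0.0803 FPKM in vriΔ679 at ZT14, 2.36 and 4.14 in wild type at ZT14, 2.44 and 3.27 in vriΔ679 at ZT2, and 0.369 and 0.247 in wild type at ZT2. Both were low in vriΔ679 at ZT14 and in wild type at ZT2 and high in the other groups, as tobi was.

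Of 15 fat body markers 14 were tested. At ZT14, 5 were lower in vriΔ679 and 1 (to, the takeout gene) was higher, where 12.8 % of all genes tested were called lower and 9.53 % higher. At ZT2, 3 were higher and 0 lower (Fbp1, Fbp2 and fit), where 1.88 % of all genes tested were called higher and 1.01 % lower. The summed level of the list was 1791 to 2784 FPKM in vriΔ679 at ZT14, 3707 to 7568 in wild type at ZT14, 7008 to 10820 in vriΔ679 at ZT2 and 8564 to 13497 in wild type at ZT2, most of it from the yolk protein genes Yp1, Yp2 and Yp3. That sum reached its highest value in wild type at ZT2, where tobi was lowest, but its ranges overlapped between the genotypes at ZT2. Between times in wild type, Lsp2, Fbp1 and Fbp2 rose at ZT14, to and Apoltp fell (−2.15 and −1.07), and 9 of 14 did not pass. Over all genes tested 3.91 % were called higher and 2.72 % lower in that comparison. Between times in vriΔ679, 8 of 14 fell and 0 rose, where 6.38 % of all genes tested were called lower and 3.59 % higher. No marker of the list was at 0 in all libraries. In head RNA, fewer cells of a type and less RNA per cell cannot be told apart, and the part of fat body content in the values of the 9 genes was not tested.

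**Figure D2:**
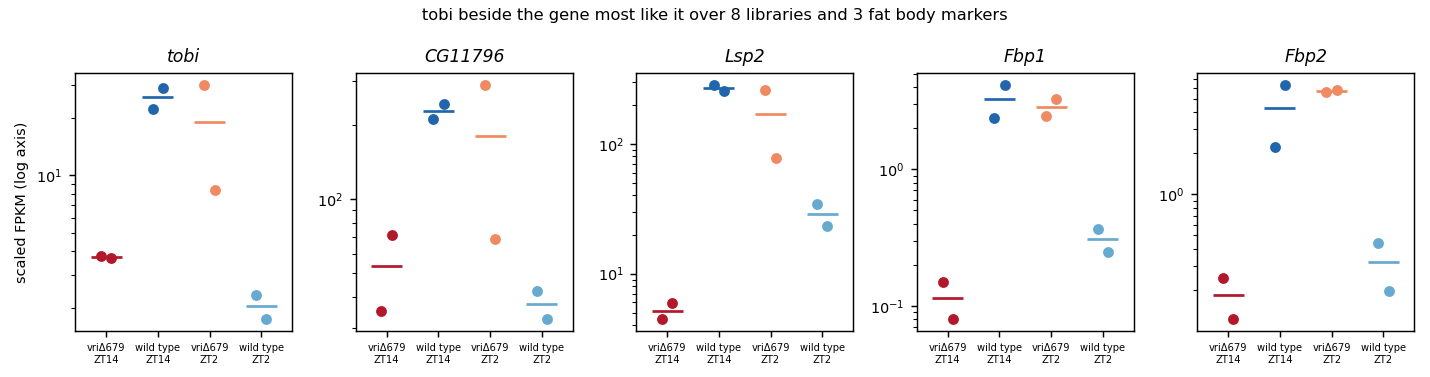
Scaled FPKM on log axes for tobi, for CG11796, the gene most like it over the 8 libraries, and for the fat body markers Lsp2, Fbp1 and Fbp2 (points: libraries, lines: means of 2). In each panel wild type at ZT14 and vriΔ679 at ZT2 are the groups with the higher means, and vriΔ679 at ZT14 lies below wild type at ZT14. The markers were chosen for this from a list of 15 after their values were seen. On the same list the takeout gene to, Apoltp and the yolk protein genes had other group orders.

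Both enzymes of glycogen turnover were low in the mutant at night. GlyP (2L 2130813–2137296, plus strand), the glycogen phosphorylase gene, stood at 250 and 247 FPKM in vriΔ679 at ZT14 and 487 and 417 FPKM in wild type at ZT14. GlyS (3R 15141843–15147531, minus strand), the glycogen synthase gene, stood at 48.2 and 55.6 FPKM in vriΔ679 at ZT14 and 116 and 100.8 FPKM in wild type at ZT14. For both genes the groups did not overlap, and the mutant means were 0.549 times (GlyP) and 0.480 times (GlyS) those of wild type, with log2 differences of −0.86 (SE 0.14) and −1.05 (SE 0.13). Without the library labelled vriΔ679 ZT14 replicate 2 the differences were −0.85 (GlyP) and −1.16 (GlyS).

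In the morning neither gene was called between genotypes. GlyP stood at 377 and 327 FPKM in vriΔ679 at ZT2 and 327 and 352 FPKM in wild type at ZT2, a log2 difference of 0.05 (SE 0.14, adjusted p = 0.932, limma). GlyS stood at 100.3 and 93.3 FPKM in vriΔ679 at ZT2 and 90.5 and 92.5 FPKM in wild type at ZT2, a difference of 0.08 (SE 0.13, adjusted p = 0.857, limma). The GlyP groups overlapped and the GlyS groups lay apart by less than 1 FPKM.

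From ZT2 to ZT14 GlyS fell in vriΔ679, by a log2 difference of −0.90 (SE 0.13, adjusted p = 0.00962, limma), to 0.536 times its ZT2 mean. It was the only call among the 6 members tested for time in vriΔ679, where 6.38 % of genes tested were called lower and 3.59 % higher. The vriΔ679 ZT14 libraries took part in the choice of the list through Pepck and tobi. The GlyS call is therefore not independent of that choice, and nothing about the list is read from it. The call was lost without vriΔ679 ZT2 replicate 1 (adjusted p = 0.0743, limma) or replicate 2 (adjusted p = 0.0598, limma) and in the fit of those groups alone (adjusted p = 0.0753, limma), and was kept without the library labelled vriΔ679 ZT14 replicate 2 (−0.999, adjusted p = 0.00340, limma). GlyP differed by −0.50 (SE 0.14, adjusted p = 0.0706, limma) in vriΔ679, and by −0.49 (adjusted p = 0.0413, limma) without that library.

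In wild type the time differences of both glycogen genes had the other sign, 0.41 (SE 0.14, adjusted p = 0.164, limma) for GlyP and 0.24 (SE 0.13, adjusted p = 0.384, limma) for GlyS, and did not pass. In each genotype the ZT14 libraries lay apart from the ZT2 libraries for both genes, below them in vriΔ679 and above them in wild type. The genes most like GlyS over the 8 libraries were fus (r = 0.99), Best2 (r = 0.98) and dmGlut (r = 0.98), and those most like GlyP were Cyp6a2, CG5261 and CG2641 (r = 0.98 each).

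**Figure D3:**
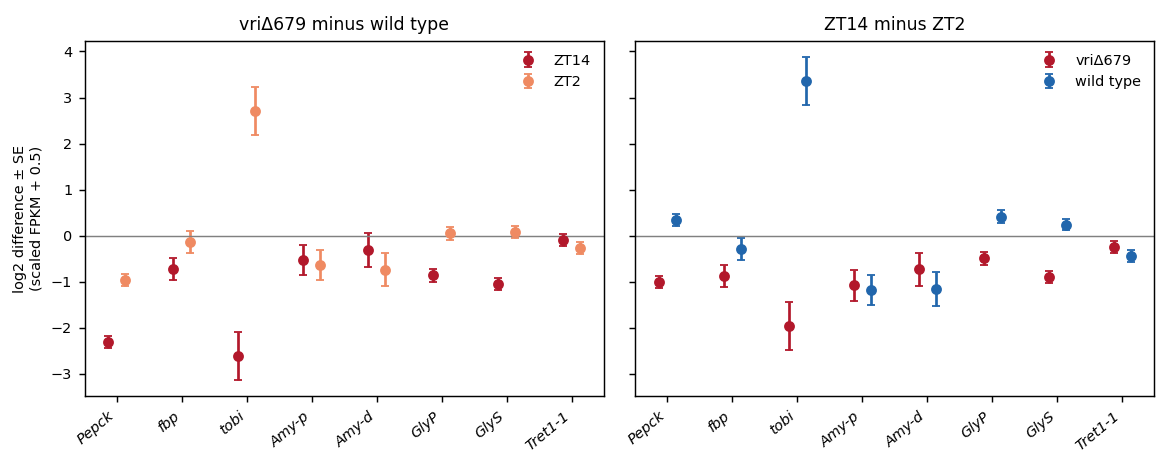
Log2 differences (± SE of the fit, n = 2 per group, scaled FPKM + 0.5) of the 8 genes above the minimum, vriΔ679 minus wild type at ZT14 and ZT2 on the left and ZT14 minus ZT2 in vriΔ679 and wild type on the right. At ZT14 all 8 differences lie below 0, the lowest being tobi (−2.62) and Pepck (−2.31), and tobi has opposite signs at ZT14 and ZT2.

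The digestive enzyme genes Amy-p (2R 17118636–17120303, minus strand) and Amy-d (2R 17124764–17126369, plus strand) are a duplicated pair of alpha-amylase genes of very similar sequence, so the split of reads between them is uncertain and their sum is given too. Together they stood at 22.0 and 10.1 FPKM in vriΔ679 at ZT14, 23.5 and 17.2 in wild type at ZT14, 30.1 and 26.9 in vriΔ679 at ZT2, and 39.9 and 54.2 in wild type at ZT2. The genotypes overlapped at ZT14 and did not at ZT2, where vriΔ679 was lower. Amy-d made up 51.4 to 61.9 % of the sum.

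No amylase difference was called with all libraries in the fit. Between genotypes at ZT2, Amy-p differed by −0.63 (SE 0.33, adjusted p = 0.461, limma) and Amy-d by −0.74 (SE 0.36, adjusted p = 0.429, limma). At ZT14 the genotype differences were −0.53 (SE 0.33) and −0.32 (SE 0.36), but −0.02 and 0.22 without the library labelled vriΔ679 ZT14 replicate 2, and −1.05 and −0.85 without vriΔ679 ZT14 replicate 1.

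Both amylase genes were lower at ZT14 than at ZT2 in every library of each genotype. In vriΔ679 Amy-p differed by −1.08 (SE 0.33, adjusted p = 0.0821, limma), by −0.57 (adjusted p = 0.0821, limma) without the library labelled vriΔ679 ZT14 replicate 2, and by −1.60 (adjusted p = 0.0156, limma) without vriΔ679 ZT14 replicate 1, a value that rests on the library whose label is in doubt. In wild type it stood at 9.42 and 7.64 FPKM at ZT14 and 16.8 and 23.7 FPKM at ZT2, a difference of −1.19 (SE 0.33, adjusted p = 0.0938, limma). Amy-d differed by −0.73 (SE 0.36, adjusted p = 0.214, limma) in vriΔ679 and −1.16 (SE 0.36, adjusted p = 0.130, limma) in wild type. In vriΔ679 the Amy-d difference was −0.20 (adjusted p = 0.606, limma) without the library labelled vriΔ679 ZT14 replicate 2 and −1.27 (adjusted p = 0.0585, limma) without vriΔ679 ZT14 replicate 1. Leaving out either vriΔ679 ZT14 library left the sizes of the wild-type differences the same. With a wild-type library left out they ranged from −1.43 to −0.95 for Amy-p and from −1.42 to −0.89 for Amy-d. Both wild-type differences were called in the fit of the wild-type groups alone (adjusted p = 0.0270 and 0.0489, limma). Each stayed uncalled in 14 of the 17 alternative settings.

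Tret1-1 (2R 11665768–11674782, plus strand) encodes a trehalose transporter. It stood at 87.2 and 97.9 FPKM in vriΔ679 at ZT14, 99.9 and 96.5 in wild type at ZT14, 109 and 111 in vriΔ679 at ZT2, and 146 and 122 in wild type at ZT2. The genotype groups overlapped at ZT14 (log2 difference −0.09, SE 0.13, and −0.17 without the library labelled vriΔ679 ZT14 replicate 2), while at ZT2 vriΔ679 lay below wild type (−0.27, SE 0.13, adjusted p = 0.410, limma), a difference that did not pass. Its time differences were −0.25 (SE 0.13, adjusted p = 0.230, limma) in vriΔ679 and −0.44 (SE 0.13, adjusted p = 0.111, limma) in wild type. The wild-type difference ranged from −0.57 to −0.31 with a wild-type library left out. It stayed uncalled in 15 of the 17 alternative settings. Amyrel (2R 16651095–16652699, minus strand) had 0.457 and 0.232 FPKM in vriΔ679 at ZT14, 0.198 and 0.358 in wild type at ZT14, 0.0791 and 0.211 in vriΔ679 at ZT2, and 0.201 in both wild-type ZT2 libraries, and an exon of gprs on the opposite strand overlaps it.

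Counted over the 9 genes, 5 had vriΔ679 libraries below all wild-type libraries at ZT14 (Pepck, fbp, tobi, GlyP and GlyS), 0 lay above and 4 overlapped, where 31.6 % of all genes tested lay below and 31.6 % above. All 8 fitted genes had a log2 difference below 0, with a median of −0.79 against −0.01 for all genes tested, of which 22.3 % were called. The contrast chose the list, so nothing is read from these counts. At ZT2, 4 of 9 lay below (Pepck, Amy-p, Amy-d and Tret1-1), 2 above (tobi and GlyS) and 3 overlapped, against 29.3 % below and 28.4 % above over all genes. The median of the 8 was −0.21 against −0.00 for all genes.

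Between times in vriΔ679, 8 of 9 genes had ZT14 libraries below both ZT2 libraries and Amyrel had them above, against 28.9 % below and 27.4 % above over all genes. The vriΔ679 ZT14 libraries took part in the choice of the list, so nothing is read from this count. In wild type, 4 lay above (Pepck, tobi, GlyP and GlyS), 4 below (fbp, Amy-p, Amy-d and Tret1-1) and 1 overlapped, against 32.1 % above and 30.9 % below, and the wild-type ZT14 libraries took part in that choice too. Of the 6 members tested for time in wild type, limma called 0, where 6.63 % of all genes tested were called, 3.91 % higher and 2.72 % lower. Of these 6 members, 4 had an unadjusted p under 0.05 (limma), as did 2025 of the 10122 genes tested. Nothing is read from these counts either. The difference between the time differences, vriΔ679 minus wild type, was −5.32 for tobi, −1.34 for Pepck, −1.13 for GlyS and −0.91 for GlyP on the log2 scale, a description with no test. Over all genes tested this genotype by time term was called for 8.25 %, 2.37 % higher and 5.88 % lower.

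Other genes of sugar metabolism and its control were taken from 6 lists of 72 genes outside the 9, of which 57 were tested. The lists were chosen with earlier results of these data known, so nothing about the pathways is read from their counts. Between genotypes at ZT14, 13 were lower in vriΔ679 and 2 higher, with 42 not called and a median of −0.23, where 12.8 % of all genes were called lower and 9.53 % higher. With the FPKM not rescaled, calls over all genes split into 1428 higher and 1112 lower in place of 965 and 1295, and calls among the 57 genes into 5 higher and 10 lower. The 57 genes gave 27 calls without the library labelled vriΔ679 ZT14 replicate 2, 8 without either wild-type ZT2 library and 3 without either wild-type ZT14 library.

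On the gluconeogenesis list, 4 of 7 genes were lower at ZT14 and 1 was higher. CG1516 (current symbol PCB), the pyruvate carboxylase gene that acts upstream of Pepck, was at 41.5 and 44.0 FPKM in vriΔ679 and 89.1 and 80.7 FPKM in wild type, a difference of −0.98 (SE 0.13, adjusted p = 0.00398, limma). The malic enzyme genes Men-b and Men were lower by −0.84 (adjusted p = 0.0144, limma) and −0.54 (adjusted p = 0.0254, limma), and Mdh2, a malate dehydrogenase gene, by −0.56 (adjusted p = 0.0470, limma). G6P, encoding glucose-6-phosphatase, went the other way, at 14.8 and 12.7 FPKM in vriΔ679 against 8.20 and 9.10 FPKM in wild type (0.64, SE 0.12, adjusted p = 0.0139, limma).

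On the glycogen list 2 of 9 genes were lower: AGBE, the glycogen branching enzyme gene, by −0.98 (SE 0.17, adjusted p = 0.0101, limma), and CG9485 by −1.27 (SE 0.24, adjusted p = 0.0144, limma). AGBE stood at 50.3 and 38.9 FPKM in vriΔ679 at ZT14 and 92.2 and 83.2 FPKM in wild type at ZT14. Of 5 trehalose genes only Treh, the trehalase gene, was called (−0.47, adjusted p = 0.0449, limma), and of 5 other alpha-glucosidase genes CG14476 (current symbol GCS2alpha) and the maltase gene Mal-A1 were (−0.55 and −0.45, adjusted p = 0.0178 and 0.0466, limma). Among 8 sugar transporters, sut1 was lower, at 5.78 and 6.03 FPKM in vriΔ679 against 10.6 and 12.5 FPKM in wild type (−0.90, SE 0.12, adjusted p = 0.00433, limma), and CG8249 was lower by −0.55 (adjusted p = 0.0299, limma).

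The list of sugar and hunger signalling had 1 gene higher and 2 lower of 23 at ZT14. The lipase genes bmm and Lip4 were lower (−0.67 and −0.50, adjusted p = 0.00748 and 0.0260, limma), and bigmax, which encodes the partner of the sugar-sensing factor Mondo, was higher (0.46, adjusted p = 0.0401, limma). Of the 14 calls named from the lists by rule at ZT14, those of CG1516 and sut1 held in all 17 alternative settings. The other 12 were kept in 5 to 15 of the 17 settings, and each was lost without at least 1 of the ZT14 libraries, with adjusted p = 0.0574 to 0.211 (limma). Treh and Mal-A1 were kept in 5 settings each. Mdh2 falls outside that rule and is named to complete the count of its list.

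Markers of other cell types moved at ZT14 as well, where 12.8 % of all genes tested were called lower and 9.53 % higher. The summed level of 8 glia markers was 917 to 944 FPKM in vriΔ679 and 1595 to 1631 in wild type, with 6 of 8 called lower. For 12 muscle markers it was 3631 to 3925 and 6117 to 6594 FPKM in the same order of groups, with 5 of 10 tested called lower. For 10 hemocyte markers it was 45.8 to 47.0 and 123 to 138 FPKM, with 3 of 9 tested called lower. Those 3 were vkg, Cg25C and srp, and most of that sum came from vkg and Cg25C. Hml, NimC1, eater and Sr-CI also lay lower but were not called, PPO1 lay higher and PPO2 overlapped. Of 8 neuron markers limma called 0, and 1 had an unadjusted p under 0.05, as did 3931 of the 10122 genes tested. Their sums were 662 and 868 FPKM in vriΔ679 and 805 to 833 FPKM in wild type. In vriΔ679 replicate 1 brp and Syt1 stood at 2.70 and 100 FPKM, against 21.1 and 185 in replicate 2. Syx1A and para were higher in replicate 1, so the lack of calls does not show steady neuron markers. The part of these cell types in the values of the sugar genes was not tested.

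**Figure D4:**
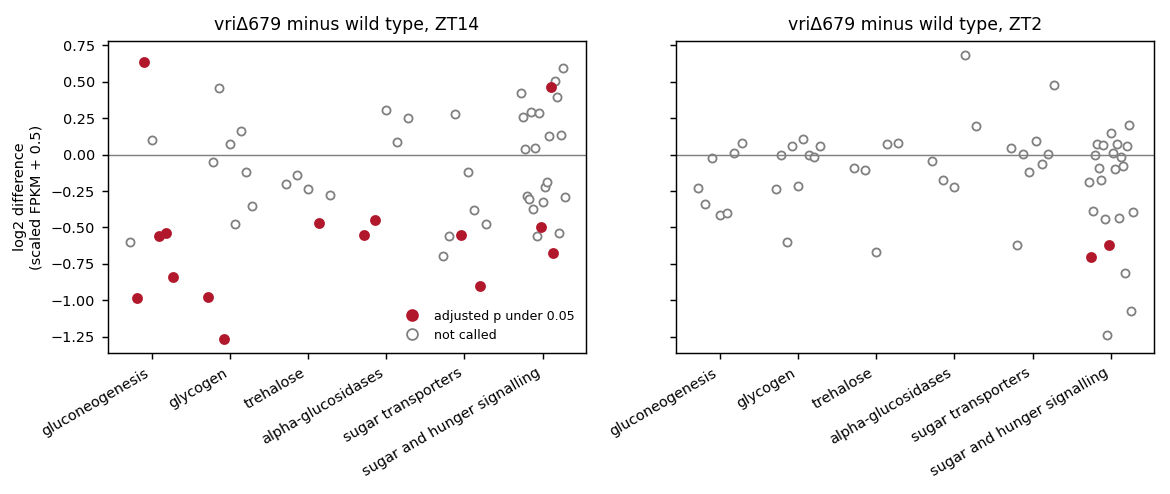
Log2 differences, vriΔ679 minus wild type (scaled FPKM + 0.5), of 57 genes on 6 lists of sugar metabolism and its control at ZT14 and ZT2, each point a gene and filled points those with an adjusted p under 0.05 (limma). At ZT14, 13 filled points lie below 0 and 2 above, and at ZT2 the 2 filled points lie below 0.

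At ZT2, 2 of the 57 genes were called, both lower in vriΔ679, where 2.88 % of all genes were called. AkhR, the receptor of adipokinetic hormone, stood at 11.9 and 10.7 FPKM in vriΔ679 and 18.9 and 18.4 FPKM in wild type (−0.70, SE 0.13, adjusted p = 0.0470, limma). Lip4 stood at 14.0 and 12.8 FPKM in vriΔ679 and 21.4 and 20.4 FPKM in wild type (−0.62, SE 0.12, adjusted p = 0.0394, limma). Both calls were lost without any of the 4 ZT2 libraries, with adjusted p = 0.166 to 0.300 (limma).

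Between times, 7 of the 57 genes fell and 2 rose in vriΔ679, where 9.97 % of all genes were called. G6P rose by 0.67 (adjusted p = 0.0209, limma) and AkhR by 0.71 (adjusted p = 0.0234, limma). CG9485 fell by 1.36, CG8249 by 0.73, CG5171 by 1.22, sut1 by 0.62, CG1516 by 0.61, bmm by 0.49 and Men by 0.55 on the log2 scale (adjusted p = 0.0203 to 0.0401, limma). Each of these 9 calls was lost without at least 1 of the vriΔ679 libraries, with adjusted p = 0.0508 to 0.202 (limma). In the same comparison 8 of 14 fat body markers and 3 of 9 hemocyte markers fell and 0 of either rose, with median differences of −1.34 and −0.89. Over all genes tested 6.38 % were called lower and 3.59 % higher. The part of these cell types in the values of the 57 genes and in the fall of GlyS was not tested.

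In wild type 4 of the 57 fell from ZT2 to ZT14 and 0 rose, where 2.72 % of all genes were called lower and 3.91 % higher. The activin-like ligand gene daw stood at 9.52 and 7.62 FPKM at ZT14 and 19.6 and 17.8 FPKM at ZT2 (−1.09, SE 0.17, adjusted p = 0.0140, limma). CG9238 (current symbol Gbs-70E), encoding a glycogen-binding subunit of protein phosphatase, fell by 0.74 (adjusted p = 0.0243, limma), CG5171 by 1.11 (adjusted p = 0.0439, limma) and Lip4 by 0.54 (adjusted p = 0.0390, limma). All 4 calls were lost without some of the wild-type libraries, with adjusted p = 0.0529 to 0.252 (limma).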

How the data were processed

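The authors deposited a table per library of 35411 transcripts with FPKM and, in a second column, per-base coverage, a signal that is used here only for depth, per the file headers. Per the submitters' processing notes, STAR 2.6.1d and StringTie were used with the build dm6. No strand setting for counting is given in the sources used here, so genes with overlapping exons are uncertain. Per the labels, reads were 75 nt, single-end, from a directional poly(A) kit. Coverage over FPKM gave mapped reads per library, 49.3 to 65.4 M.

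FPKM was summed per symbol and scaled with median-of-ratios factors from 12078 genes (0.968 to 1.04). Genes with at least 1 FPKM in at least 2 libraries (10122) were fitted together with limma 3.58.1 (R 4.3.3) as 4 groups, the input being log2 of scaled FPKM plus 0.5 and eBayes run in its trended, robust form. The Benjamini-Hochberg adjustment covered every gene tested, and 0.05 was the threshold. The pseudocount understates differences of low genes. The fit was tested on simulated data. The 9 members and all lists were chosen with earlier results of these data known. Genes were named by rule: members, up to 4 called genes of each list per comparison with the smallest p, and the 3 genes with the highest r to a member. Tests of Pepck and tobi between times, planned at the start, are not given, because the ZT14 libraries chose them. The time tests of the other members share those libraries and are not independent of the choice. Overlaps come from Ensembl release 115, and current symbols from RefSeq accessions. Each library was left out in turn, among other alternatives. No sequences of the genes are shown.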

Additional observations from a re-analysis of the deposited data

Results flagged for a closer look

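The time difference had opposite signs in the genotypes, with ZT14 and ZT2 libraries apart in each, for 4 of the 9 genes, and these differences of differences (vriΔ679 minus wild type, log2) were not tested because the ZT14 genotype contrast chose the list. They were −5.32 for tobi, −1.34 for Pepck, −1.13 for GlyS and −0.91 for GlyP. Over 16 alternative settings they ranged from −6.21 to −4.43 for tobi, −1.47 to −1.23 for Pepck, −1.26 to −1.03 for GlyS and −1.04 to −0.80 for GlyP.

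Among the other genes of sugar metabolism and its control, the time differences themselves differed between genotypes for 6 of 57 (limma, genotype by time), where 8.25 % of all genes tested were called. The value was 1.06 (SE 0.19, adjusted p = 0.0226, limma) for CG9238, 1.21 (SE 0.24, adjusted p = 0.0286, limma) for daw, 0.96 (SE 0.19, adjusted p = 0.0287, limma) for AkhR and 0.90 (SE 0.18, adjusted p = 0.0281, limma) for bigmax. It was −0.91 (SE 0.18, adjusted p = 0.0268, limma) for sut1 and −0.65 (SE 0.15, adjusted p = 0.0468, limma) for bmm. Leaving out any of the wild-type libraries, or vriΔ679 ZT2 replicate 2, ended each of the 6 calls, and leaving out vriΔ679 ZT2 replicate 1 ended all but that of daw, with adjusted p of at most 0.196 (limma) when a library was left out.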

How the results depend on the processing

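The count of members called was 1 at ZT2 (genotype), 1 for time in vriΔ679 and 0 for time in wild type. It became 2 at ZT2 with FPKM not rescaled, with equal totals or without the trend and robust options, each adding tobi, and 0 to 1 with a library left out. For time in vriΔ679 it was 2 with equal totals, 2 with the replicate block, which added fbp (adjusted p = 0.0145, limma), 0 with only the groups compared and 0 to 2 with a library left out. For time in wild type it was 2 with only the groups compared and 0 to 3 with a library left out. The 15 calls among other pathway genes at ZT14 became 3 with only the groups compared and 3 to 27 with a library left out. Of 544 recomputed values of single members, 514 stayed on their side of the threshold, called or not, or, where untested, moved by less than the spread. Another 17 gained a call, 7 lost one, 6 moved further and 0 reversed a call. All 7 losses fell on Pepck at ZT2 and GlyS for time in vriΔ679, the only member calls, kept in 13 and 14 of 17 settings. Among named pathway genes the replicate block ended the genotype by time call of bmm and 5 calls in the other comparisons (limma): Treh (adjusted p = 0.0542) and Mal-A1 (0.0611) at ZT14, Lip4 at ZT2 (0.0591), bmm for time in vriΔ679 (0.0533) and Lip4 for time in wild type (0.0552). Replicate numbers are not stated to pair libraries: the correlation of same-numbered deviations across genes was −0.10, 0.27, 0.07 and −0.14 for genotype at ZT14, genotype at ZT2, time in vriΔ679 and time in wild type.

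Over all genes, calls numbered 2260 (genotype at ZT14), 292 (genotype at ZT2), 1009 (time in vriΔ679) and 671 (time in wild type). With only the groups compared they were 832, 441, 214 and 1608, with at least 5 FPKM the ZT2 count was 172, and with a library left out they ranged over 583 to 5171, 80 to 617, 176 to 4593 and 146 to 1445. The lone sample of a group was then assumed to vary like the others. The cause of these changes was not tested. Depth limits Amyrel, with 7.71 to 40.03 reads.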

Other observations

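Amy-p has 2 listed transcripts, and the longer (1668 nt) was listed at 0 in all 4 ZT14 libraries but took 47.2 and 43.7 % of the gene's FPKM in vriΔ679 at ZT2 and 43.7 and 46.7 % in wild type at ZT2. GlyS has 4 listed transcripts, and the 2584 nt transcript took 17.5 and 0.0771 % in vriΔ679 at ZT14, 68.5 and 45.3 % in wild type at ZT14, 47.8 and 31.3 % in vriΔ679 at ZT2, and 50.0 and 50.7 % in wild type at ZT2. The longer GlyP transcript (3144 nt) took 17.8 and 11.7 % in vriΔ679 at ZT14, 9.82 and 13.9 % in wild type at ZT14, and 7.79 to 8.59 % in the 4 ZT2 libraries. These transcripts share most of their sequence, a value of 0 can be a failed estimate, and no test was made of the shares.

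Within libraries, GlyP was 5.18 and 4.44 times GlyS in vriΔ679 at ZT14, 4.22 and 4.14 times in wild type at ZT14, 3.76 and 3.50 times in vriΔ679 at ZT2, and 3.61 and 3.81 times in wild type at ZT2, by FPKM. For fbp the most similar genes over the 8 libraries were CG6415 (r = 0.99), ade5 (current symbol Paics, r = 0.98) and Glt (r = 0.98). For Amy-p they were l(3)72Dr (r = 0.98), Mdr49 (r = 0.98) and PGRP-SD (r = 0.96), and for Amy-d l(3)72Dr (r = 0.97), Nmdmc (r = 0.97) and eIF3-S8 (current symbol eIF3c, r = 0.96). For Tret1-1 they were TAF1C-like (r = 0.97), Cyp318a1 (r = 0.95) and the chaperone gene Hsp83 (r = 0.95).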
